A study of Mus musculus with 6 samples.

Results

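The genes described here encode the machinery that docks, primes and fuses synaptic vesicles, together with the close relatives that share their names. They were taken by gene symbol from the deposited count table: the syntaxins, the Snap and Vamp genes, the syntaxin-binding proteins (Stxbp), Munc13 (Unc13), Rab3, RIM (Rims), complexin (Cplx), synaptotagmin (Syt), synapsin (Syn) and Sv2 families. This gave 73 of the 57180 genes in the table. The rule uses symbols only, and the families were chosen with earlier results of these data known. Transcripts were measured by RNA sequencing in dorsal root ganglia, which lie beside the spinal cord and house the cell bodies of sensory neurons, from 3 sham-operated and 3 renal ischemia-reperfusion (I/R) mice, with 1 library per mouse. All 6 mice were labelled WT, were anesthetized with Zoletil at 55 mg/kg, and gave ganglia of levels T8-L2 at 24 h after surgery. Renal I/R was made by clamping the vessels of the left kidney for 28 min, releasing them and taking out the right kidney. Sham mice had the same surgery with no clamp, and whether they also lost the right kidney is not stated separately. No source used here gives the strain, age or sex of the mice. The labels do not say whether the mice were operated on in batches, so p-values measure only the spread between these libraries.

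As background, a synaptic vesicle fuses when a vesicle SNARE protein (Vamp) zips together with a syntaxin and Snap25 on the plasma membrane. Munc13 proteins help guide this assembly, Rab3 and RIM proteins tether the vesicle at the active zone, complexin clamps the assembled complex, and synaptotagmin triggers fusion when calcium binds it. Sensory neurons make these proteins in the ganglion and ship them along the axon to terminals in the spinal cord and in organs such as the kidney, so the transcripts measured in ganglia are those of the cell bodies. Other family members serve fusion steps inside cells or secretion from cells other than neurons.

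Library totals lay between 19092650 and 22010227 expected counts. All 14 sensory neuron markers were expressed, none was called changed, and their summed level ran from 20836 to 22266 CPM (counts per 1000000 counts of a library) in sham and from 18929 to 22900 in I/R. Skeletal muscle markers summed to 621, 22.9 and 315 CPM in the sham libraries and to 8.60, 18.1 and 12.9 CPM in the I/R libraries, so sham 1 and sham 3 stood apart. Some spinal cord glia markers showed the same split. Mobp stood at 18.7, 3.20 and 12.7 CPM in sham and 1.68, 3.53 and 2.83 CPM in I/R. Gfap stood at 14.4, 2.15 and 7.97 CPM in sham and 2.32, 3.34 and 2.51 CPM in I/R. Cnp and Mbp did not show it. Cnp stood at 253, 262 and 230 CPM in sham and 234, 250 and 215 CPM in I/R, and Mbp was higher in sham 2 than in sham 3. Of that list of 11, edgeR tested 7 and called 0, with 5 at an unadjusted p under 0.05, and the sum, most of it Mbp, which Schwann cells share, was 1733 to 2033 CPM in sham and 1421 to 1693 CPM in I/R. The part of spinal cord tissue in the members' values was not tested beyond the values against sham 2 alone. Of the 12 spinal cord neuron markers, 5 were tested and 0 were called, with 0 at an unadjusted p under 0.05. The other 7 were at 0.786 CPM or less in every library and went both ways: Slc6a5 stood at 0.786, 0 and 0.771 CPM in sham and 0.148, 0.145 and 0.0913 CPM in I/R, and Gad2 at 0.0982, 0 and 0 CPM in sham and 0.445, 0.194 and 0.319 CPM in I/R. Gad1 was present in all 6 libraries, at 0.642 to 1.59 CPM, and the list summed to 235 to 300 CPM in sham and 285 to 304 CPM in I/R, most of it Slc17a7. Fibroblast and meningeal markers were lower in I/R, with 8 of 10 called. In bulk tissue, fewer cells of a type and less RNA per cell cannot be told apart.

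No gene of the release machinery was called changed 24 h after renal I/R. Of the 73 genes, 67 had enough counts to be tested, and 0 of them reached an adjusted p under 0.05 in edgeR's quasi-likelihood test, where 188 of all 16346 tested genes did (1.15%). The lowest adjusted p among the 67 was 0.25, for Stxbp5. An unadjusted p under 0.05 was reached by 7 of the 67 (10.4%), 2 of them higher and 5 lower in I/R, against 10.5% of all tested genes. The 3 I/R values lay all above the 3 sham values for 8 members and all below for 7, together 22.4% of the 67, against 17.1% of all tested genes. The median log2 fold change of the members was 0.02, with 39 above 0 and 28 below, and that of all tested genes was 0.00. DESeq2 and limma-voom also called 0 members, with 7 (10.4%) at an unadjusted p under 0.05 in each, against 8.04% and 10.5% of all tested genes.

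The intervals bound how large a difference these libraries could still hold. The 95% interval of the fold change, unadjusted for the number of genes, lay within 2-fold in both directions for 66 of the 67 and within 1.5-fold for 58. All 37 members with a mean of at least 50 CPM had intervals within 1.5-fold. Standard errors of the log2 fold change ran from 0.08 to 0.27, with a median of 0.11, and the fold changes themselves from -0.62 to 0.42. The exception to the 2-fold bound was Vamp8, a gene of low level.

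**Figure D1:**
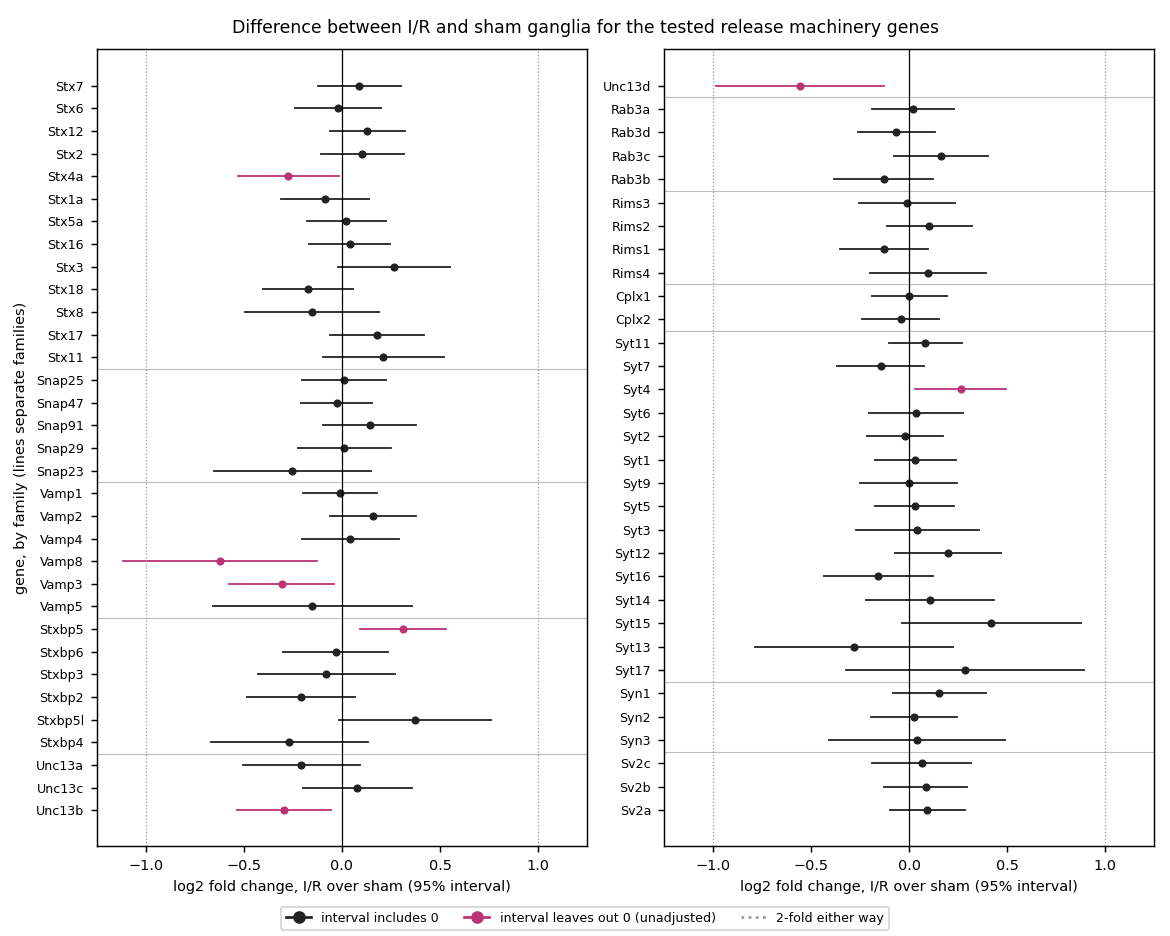
Log2 fold change (I/R over sham) of 65 tested genes with its unadjusted 95% interval, grouped by family; dotted lines mark a 2-fold change. Intervals of 58 genes include 0, and 7 genes drawn in magenta have intervals that leave out 0 but no adjusted p under 0.05.

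The ganglia expressed at least 2 genes of every family, and in 9 of the 11 families, all but the syntaxins and synaptotagmins, a single gene supplied over 50% of the transcripts in sham. Levels of different genes are compared here as CPM per kb of the gene length in the deposited table. The order of genes on this scale rests on those listed lengths. On this scale Cplx1 was the highest member at 553 CPM per kb over all 6 libraries, followed by Vamp1 at 462, Snap25 at 425, Rims3 at 388 and Vamp2 at 359. Syt11 stood at 276, Rab3a at 242 and Syt7 at 205. These are the neuronal forms of the SNARE proteins and their direct regulators, apart from Syt11, which lacks calcium binding and acts in membrane traffic. At the other end, 6 members were too low to test. Cplx4 and the pseudogene Stxbp3-ps had no count in any library, Stx19 and Syt8 had 1 count each over all 6 libraries, Cplx3 had 5, and Syt10 had 46. A count of 0 in a library allows up to 3 counts, or 0.137 to 0.154 CPM, as counting error only.

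**Figure D2:**
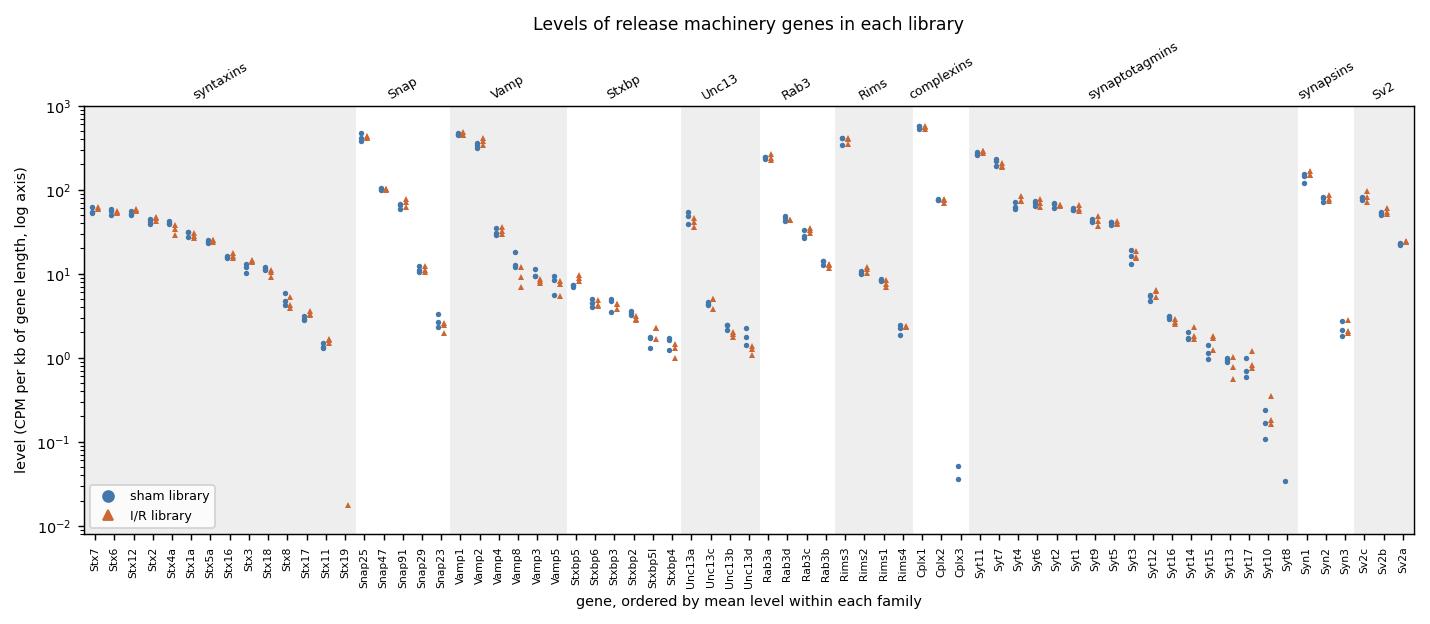
Level of the members described here with at least 1 count, in CPM per kb of gene length on a log axis, with 1 point per library (circles sham, triangles I/R; libraries at 0 are not drawn). Levels span from Cplx1 at 553 CPM per kb to members with a count in few libraries, and the sham and I/R points of a gene lie close together.

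Stx1a encodes a neuronal plasma membrane syntaxin that pairs with Snap25. It stood at 67.3, 68.5 and 59.5 CPM in sham and at 61.0, 65.6 and 57.5 CPM in I/R, given here and below in replicate order. The groups overlapped, and the log2 fold change was -0.09 ± 0.10 (SE, 95% interval -0.31 to 0.14), with an adjusted p of 0.82 from edgeR's test. Stx7, Stx6 and Stx12, which serve endosomes and the trans-Golgi network, stood at 58.4, 54.9 and 54.6 CPM per kb. The ranges of these neighbours over the 6 libraries overlapped, so their order on this scale is not resolved. Before scaling by length their means were 146, 52.5 and 160 CPM, with listed lengths of 2502, 955 and 2934 bases.

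Among the other syntaxins, Stx12, Stx3, Stx17 and Stx11 had all I/R values above all sham values, and Stx4a and Stx18 all below, and none passed the test. Groups failed to overlap for 17.1% of all tested genes and 22.4% of the 67 tested members, and the syntaxins were not tested against these shares. Stx3, a syntaxin of ribbon synapses and of apical membranes, had 0.27 as its log2 fold change (adjusted p = 0.51). Stx17, which acts in autophagosome fusion, had 0.18, and Stx11, known from secretion by cytotoxic lymphocytes, had 0.21. Stx18, an endoplasmic reticulum syntaxin, had -0.17. Of the 14 tested syntaxins 9 lay above 0 and 5 below, with a median of 0.06. Summed per kb, syntaxin transcripts stood at 417, 411 and 412 CPM per kb in sham and at 426, 427 and 424 in I/R. The I/R sums were above the sham sums in each library, with a ratio of means of 1.03 and a two-sided exact permutation p of 0.10. That is the smallest p that 3 against 3 libraries can give, and over the 11 family sums tested the adjusted p was 0.94.

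Snap25, the neuronal partner that adds a pair of helices to the complex, had nearly equal group means. It stood at 878, 816 and 995 CPM in sham and at 883, 887 and 935 CPM in I/R. All I/R values lay inside the sham range, and the fold change of 1.01 had a 95% interval from 0.867 to 1.17 (adjusted p = 0.98 in edgeR's test). Snap23, the form found in most cells outside neurons, had 7.59 ± 1.45 CPM (SD, n = 3, here and for other levels and shares) in sham and 6.36 ± 0.910 in I/R. Per kb, Snap25 was 4.20-fold above Snap47, the next of the group, in means over the 6 libraries. Snap91, or AP180, shares the name but is a clathrin assembly protein of vesicle recycling, and it had a log2 fold change of 0.14.

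The vesicle SNAREs were dominated by Vamp1 and Vamp2, the forms on synaptic vesicles. Vamp1, the form used by many sensory and motor neurons, stood at 648, 626 and 672 CPM in sham and at 681, 625 and 627 CPM in I/R. Those groups overlapped, and the fold change of 0.994 had an interval of 0.872 to 1.13. Vamp2, the main form of the forebrain, stood at 375, 353 and 405 CPM in sham and at 458, 383 and 423 CPM in I/R, with an overlap between I/R 2 and sham 3 (log2 fold change 0.16 ± 0.10, adjusted p = 0.64). Vamp1 exceeded Vamp2 per kb in all 6 libraries, by 1.29-fold in means. The log2 ratio of Vamp1 to Vamp2 was 0.46, 0.50 and 0.40 in sham and 0.24, 0.37 and 0.24 in I/R, lower in each I/R library, with no overlap and a two-sided exact permutation p of 0.10. Adjusted over the 11 family pairs compared in this way, the p was 0.37.

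**Figure D3:**
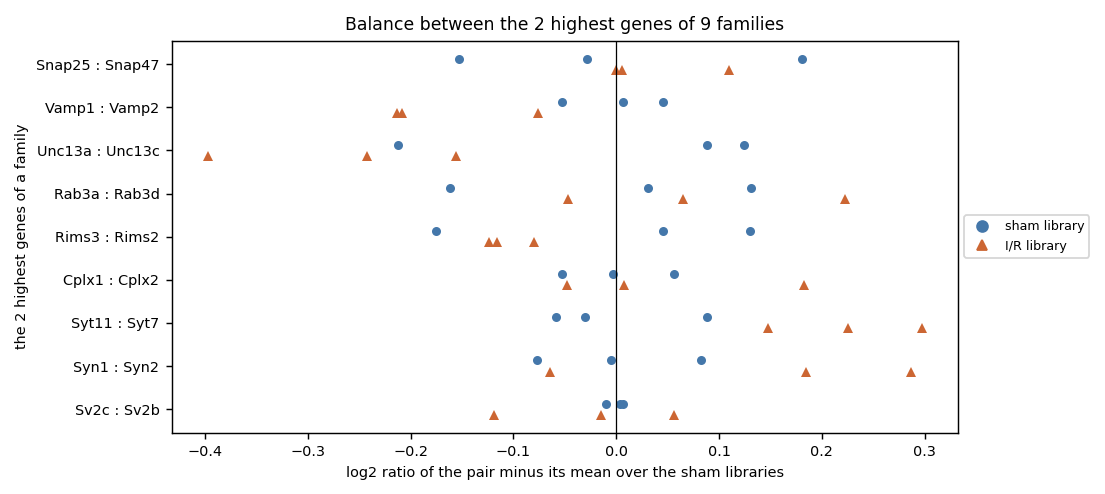
Log2 ratio of the 2 genes with the highest level per kb in each of 9 families, minus its mean over the 3 sham libraries, for each library (circles sham, triangles I/R). The groups do not overlap for Vamp1 to Vamp2 and Syt11 to Syt7, and overlap for the other 7 of the 9 pairs drawn.

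Outside the synaptic pair, the Vamp family held some of the lower values. Vamp8, which serves endosomes and granule release in mast cells, platelets and exocrine cells, stood at 9.77, 10.4 and 15.01 CPM in sham and at 9.74, 7.46 and 5.70 CPM in I/R. The groups did not overlap, but only just, since sham 1 and I/R 1 were nearly equal. The log2 fold change was -0.62 ± 0.22, the lowest of all members (95% interval -1.11 to -0.13, adjusted p = 0.33 in edgeR's test). Vamp3, or cellubrevin, a recycling SNARE of most cells, stood at 20.1, 20.0 and 24.3 CPM in sham and at 18.5, 16.3 and 17.2 CPM in I/R (-0.31 ± 0.12, adjusted p = 0.39). All its I/R values lay below its sham values. Vamp4 of the trans-Golgi network had 0.04, and Vamp5, best known from muscle, had -0.15 with an interval of -0.66 to 0.36.

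The syntaxin-binding forms used widely outside neurons, Stxbp2 and Stxbp3, were at 9.87 ± 0.537 and 10.7 ± 1.96 CPM in sham and at 8.54 ± 0.496 and 10.1 ± 0.797 CPM in I/R.

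Stxbp5 encodes tomosyn, a soluble protein with a SNARE motif that competes with Vamp and restrains fusion. It had the lowest p of all members. Its values were 64.8, 64.9 and 61.1 CPM in sham and 71.4, 79.6 and 85.8 CPM in I/R, so the groups did not overlap. The fold change was 1.24 with an interval of 1.07 to 1.45 (log2 fold change 0.31 ± 0.10, with an adjusted p of 0.25 from edgeR). The second tomosyn gene, Stxbp5l, stood at 7.61, 7.80 and 5.76 CPM in sham and at 7.41, 10.02 and 9.95 CPM in I/R. Those groups overlapped (0.37 ± 0.17, adjusted p = 0.50). Against sham 2 alone, leaving out the 2 sham libraries with muscle transcripts, the log2 fold change of Stxbp5 was 0.26 (adjusted p = 0.77, against 0.16 to 0.77 over all alternatives).

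The Munc13 genes, which open syntaxin and prime vesicles, gave mostly lower values in I/R, 3 of 4 below 0 with a median of -0.25. Unc13a, the main neuronal form and 84.6% ± 1.08 of the family per kb in sham, stood at 278, 305 and 220 CPM in sham and at 206, 258 and 232 CPM in I/R. These groups overlapped (log2 fold change -0.21 ± 0.13, interval -0.50 to 0.09, adjusted p = 0.65). Unc13b, which encodes Munc13-2, stood at 35.9, 36.2 and 31.3 CPM in sham and at 26.0, 27.9 and 30.3 CPM in I/R, all below sham (-0.30 ± 0.11, adjusted p = 0.34). Unc13d encodes Munc13-4, which primes granules in cytotoxic lymphocytes, platelets and mast cells. It stood at 7.07, 9.003 and 5.71 CPM in sham and at 4.25, 5.04 and 5.52 CPM in I/R. The groups did not overlap, with sham 3 close to I/R 3 (-0.56 ± 0.19, adjusted p = 0.31). The fourth gene, Unc13c, had 0.08.

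Stx4a encodes a plasma membrane syntaxin of regulated secretion in many cells outside neurons. It stood at 51.4, 52.8 and 55.3 CPM in sham and at 49.9, 44.6 and 37.6 CPM in I/R, all below sham (log2 fold change -0.27 ± 0.11, with an adjusted p of 0.44 from edgeR). Markers of other cell types went both ways in the same libraries. Of the 6 mast cell markers, 5 were tested and 2 were called lower: the mast cell protease Mcpt4 stood at 1.37, 2.00 and 2.78 CPM in sham and at 0.593, 0.436 and 0.456 CPM in I/R, and Cma1, mast cell chymase, had a log2 fold change of -2.21. Cpa3 and Tpsb2 had -1.74 and -1.68, each with all I/R values below sham (adjusted p = 0.097 and 0.15 in edgeR's test). Kit, which sensory neurons also express, had 0.05. The mast cell list summed to 102 to 121 CPM in sham and 95.9 to 122 CPM in I/R, nearly all of it Kit. The fibroblast and meningeal markers summed to 1155 to 1369 CPM in sham and 742 to 880 CPM in I/R. The 10 macrophage markers, with 0 called and 3 at an unadjusted p under 0.05 in edgeR, summed to 52.6 to 54.8 CPM in sham and 61.9 to 66.1 CPM in I/R, higher in each I/R library. Of the 7 satellite glia markers 1 was called, Fabp7, with -0.99, while Glul had 0.32, and the sum was 3265 to 3545 CPM in sham and 2512 to 3464 CPM in I/R. The part of these cells in the values of Vamp8, Vamp3, Unc13d and Stx4a was not tested.

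**Figure D4:**
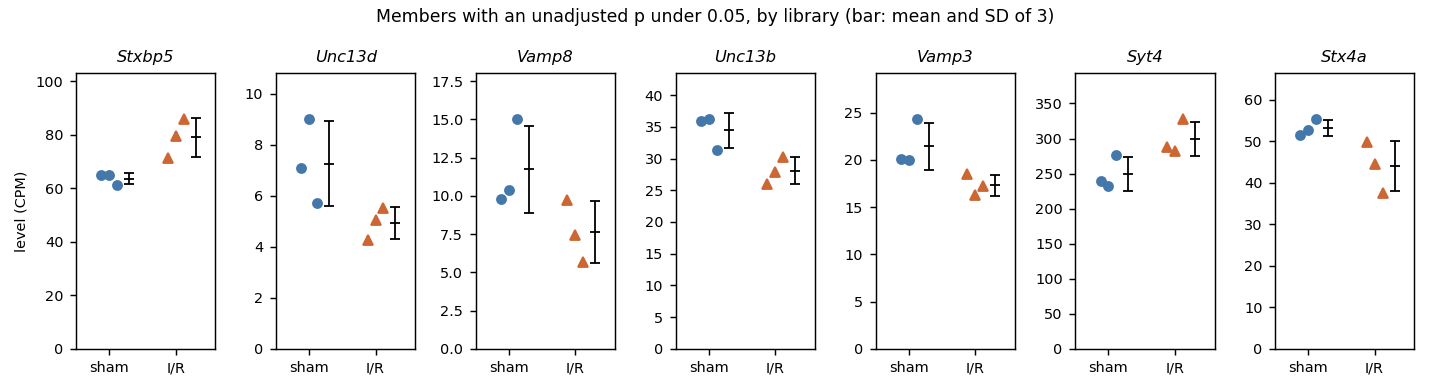
Level in CPM in each library of the 7 members with an unadjusted p under 0.05 (circles sham, triangles I/R; the bar gives the mean and SD of 3 libraries). The groups do not overlap for any of the 7, Stxbp5 and Syt4 are higher in I/R, the other 5 are lower, and no adjusted p is under 0.05.

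Leaving out libraries changed which members reached an unadjusted p under 0.05, and never brought an adjusted p under 0.05. The count of 7 was 4 (5.97%) without sham 1, without I/R 2 and without I/R 3. The share over all tested genes was 7.54%, 8.32% and 8.85% in these settings, against 10.5% with all 6 libraries. Vamp8 had log2 fold changes of -0.40 without sham 3 and -0.83 without I/R 1. Unc13d had -0.37 without sham 2 and -0.89 against sham 2 alone, where its adjusted p was 0.31, against 0.16 to 0.69 over all alternatives.

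Rab3 proteins are the small GTPases of synaptic vesicles, and RIM proteins are their effectors at the active zone. Rab3a, the most abundant in brain, stood at 336, 313 and 336 CPM in sham and at 364, 327 and 307 CPM in I/R. Both ends of the range were I/R libraries (log2 fold change 0.02 ± 0.09, adjusted p = 0.96). It made up 73.1% ± 1.44 of Rab3 transcripts per kb in sham and 73.2% ± 2.12 in I/R, ahead of Rab3d, Rab3c and Rab3b in all 6 libraries. Rab3c had the lowest p of the 4, with 0.17 ± 0.11 (adjusted p = 0.65).

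Of the RIM genes, Rims3, which encodes a short form with a lone C2 domain, was far above the long scaffold forms. Rims3 stood at 404, 408 and 331 CPM in sham and at 342, 393 and 399.8 CPM in I/R, with overlapping groups (log2 fold change -0.01 ± 0.11). Rims1, the long form that binds Munc13, Rab3 and calcium channels, stood at 60.0, 61.7 and 58.3 CPM in sham and at 50.1, 53.7 and 60.8 CPM in I/R (-0.13 ± 0.10, adjusted p = 0.72). I/R 3 fell among the sham values. Per kb Rims3 was 94.9% ± 0.439 of the family in sham. That share leans on a listed length of 977 bases for Rims3 against 7172 for Rims1, and how the lengths were derived is not given in the sources used here. Before scaling by length, mean levels in sham were 381 CPM for Rims3 and 60.0 CPM for Rims1.

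Complexins bind the assembled SNARE complex, and Cplx1 and Cplx2 are the neuronal forms outside the retina. Cplx1 stood at 1247, 1240 and 1142 CPM in sham and at 1238, 1247 and 1148 CPM in I/R. The sets of values nearly coincided, and the fold change of 1.00 had an interval of 0.878 to 1.14 (adjusted p = 0.996 in edgeR's test). Cplx2 stood at 373, 387 and 369 CPM in sham and at 340, 386 and 369 CPM after I/R (log2 fold change -0.04 ± 0.09). Cplx1 held 87.8% ± 0.399 of complexin transcripts per kb in sham and 88.2% ± 0.853 in I/R. Cplx3 and Cplx4, known from the retina, are those given above as too low to test.

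The synaptotagmins were the most varied family, with 15 of 17 genes tested. Syt1 and Syt2, the fast calcium sensors of synaptic vesicles, were at similar levels per kb. Syt1 stood at 269, 275 and 291 CPM in sham and at 263, 282 and 309 CPM in I/R, with an overlap of the groups (log2 fold change 0.03 ± 0.09). Syt2 stood at 474, 468 and 421 CPM in sham and at 438, 454 and 452 CPM in I/R (-0.02 ± 0.09). The I/R values of Syt2 fell inside the sham range, and neither gene came near the threshold (adjusted p = 0.93 and 0.95). Per kb, Syt4, Syt6, Syt2 and Syt1 were neighbours in the order of the family, and their ranges over the libraries overlapped.

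Syt7, a slow sensor with high calcium affinity that serves dense core vesicles and lysosomes, was the second of the family per kb. It stood at 465, 490 and 409 CPM in sham and at 391, 441 and 402 CPM in I/R, with overlapping groups (log2 fold change -0.14 ± 0.10, interval -0.36 to 0.08, adjusted p = 0.67). Syt11, the highest of the family, stood at 1353, 1399 and 1291 CPM in sham and at 1360, 1451 and 1468 CPM in I/R (0.08 ± 0.08). The share of Syt11 among synaptotagmin transcripts was 31.5% ± 0.202 in sham and 32.9% ± 0.183 in I/R, and that of Syt7 was 25.2% ± 1.23 and 22.5% ± 1.16. Neither share overlapped between groups. The same held for the shares of Syt16, Stx3, Stx4a, Stx18, Stxbp2, Stxbp4, Stxbp5, Stxbp5l, Unc13d, Vamp2, Vamp3 and Vamp8 in their families. Shares within a family are tied to each other, so those of Syt11 and Syt7 and their ratio are not separate observations. No such shares were computed over all genes. The log2 ratio of Syt11 to Syt7 differed by 0.22 between the group means (exact permutation p = 0.10, adjusted to 0.37).

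Syt4, an isoform of dense core and other vesicles whose transcript is known to follow neuronal activity, was the member of this family with the lowest p. It stood at 239, 232 and 277 CPM in sham and at 288, 282 and 328 CPM in I/R. All I/R values lay above the sham values, with sham 3 close to I/R 2. The fold change was 1.201 with an interval of 1.02 to 1.41 (log2 fold change 0.26 ± 0.10, with an adjusted p of 0.39 from edgeR). Leaving out any library gave values between 0.19 and 0.34. Among the less abundant genes, Syt15 had the highest log2 fold change of all members, 0.42 ± 0.20, at 4.27 ± 0.832 CPM in sham and 5.71 ± 1.11 in I/R, with overlapping groups (adjusted p = 0.52). Syt13 had -0.28 ± 0.23 and Syt17 had 0.29 ± 0.27, both below 4 CPM in each group mean. Syt3, Syt5, Syt6, Syt12 and Syt14 lay between 0.03 and 0.20 on this scale, Syt9 had a fold change of 0.998, and Syt16 had -0.16.

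Synapsins tie vesicles to the cytoskeleton and to each other in the reserve pool. Syn1 stood at 489, 467 and 391 CPM in sham and at 483, 540 and 476 CPM in I/R. The groups overlapped, with sham 3 the lowest library and I/R 2 the highest (log2 fold change 0.16 ± 0.11, adjusted p = 0.67). Syn1 held 63.6% ± 1.19 of synapsin transcripts per kb in sham, Syn2 35.4% ± 1.30 and Syn3 1.01% ± 0.126. Syn2 and Syn3 had log2 fold changes of 0.02 and 0.04.

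Sv2 proteins are vesicle glycoproteins and the entry receptors of botulinum neurotoxin A. In these ganglia Sv2c was the highest of the 3 and Sv2a, the form bound by levetiracetam and the most widespread in brain, the lowest, in all 6 libraries and with no overlap of neighbours. Sv2c stood at 728, 746 and 695 CPM in sham and at 649, 745 and 876 CPM in I/R, with the I/R values on both sides of sham (log2 fold change 0.07 ± 0.11, adjusted p = 0.88). Sv2a stood at 102, 99.3 and 94.5 CPM in sham and at 107, 105 and 104 CPM in I/R. Its I/R values all lay above sham, by a margin within the error (0.09 ± 0.09, adjusted p = 0.76). Sv2c made up 51.5% ± 0.286 of the family per kb in sham and 51.0% ± 2.31 in I/R.

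Sums over the families differed little between the groups. Taken as 1 sum, the machinery took up 1.28% to 1.37% of all counts in a library. The ratio of I/R to sham means of the family sums per kb ran from 0.873 for Unc13 to 1.08 for the synapsins, and groups overlapped for 10 of the 11 families, all but the syntaxins.

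Genes that work beside this machinery gave the same count of calls. In 5 lists of other vesicle genes, chosen with earlier results of these data known, 103 genes were tested. Of these, 0 were called by edgeR in either direction, against 1.15% of all tested genes. An unadjusted p under 0.05 was reached by 6 of the 103, against 10.5% of all tested genes. DESeq2 called 1, Vgf, and limma-voom 0. Summed levels of the lists are also given, and none was tested. Vesicle membrane and priming partners had 32 of 37 genes tested and a median log2 fold change of -0.01. Their sum was 8206 to 8511 CPM in sham and 7785 to 8161 CPM in I/R, with no overlap. The smallest p there belonged to Sytl2, a synaptotagmin-like Rab27 effector, with 119, 121 and 122 CPM in sham and 140, 151 and 162 CPM in I/R. The groups did not overlap (0.32 ± 0.09, adjusted p = 0.18). Rab3il1, an exchange factor for Rab proteins, had -0.42 (adjusted p = 0.25). Active zone scaffolds had 19 of 19 tested and a median of 0.01, and their sums overlapped (2020 to 2516 CPM in sham, 2176 to 2541 in I/R). Erc2, an active zone protein that binds RIM, stood at 78.0, 80.8 and 75.7 CPM in sham and at 87.7, 101 and 116 CPM in I/R, with no overlap (0.38 ± 0.11, adjusted p = 0.21), and Apba2, or Mint2, a presynaptic adaptor protein, had 0.36 (adjusted p = 0.43), but 0.21 without sham 3 and 0.11 against sham 2 alone.

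Transmitter loading and vesicle recycling held no gene under an unadjusted p of 0.05 in edgeR's test, against 10.5% of all tested genes. The 10 tested genes of transmitter loading had a median of 0.08. That list summed to 2690 to 2744 CPM in sham and 2811 to 2873 CPM in I/R, with no overlap. Slc17a6, the vesicular glutamate transporter VGLUT2 of many nociceptors, had 0.15 (adjusted p = 0.62) and Slc17a8, VGLUT3, had -0.22 (adjusted p = 0.56). The 27 genes of vesicle endocytosis had a median of 0.04, and their sums overlapped (6223 to 6809 CPM in sham, 6530 to 7186 in I/R). Sh3gl3, an endophilin, had -0.28 and Dnm3, a dynamin, had 0.17.

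Dense core vesicles carry neuropeptides, and their cargo and processing genes held the one gene among these lists whose call depended on the method. Of 16 genes 15 were tested, with a median log2 fold change of 0.09. The list summed to 3350 to 3571 CPM in sham and 3629 to 3835 CPM in I/R, with no overlap. Vgf, a secreted granin-like precursor that neurotrophins induce, stood at 140, 128 and 117 CPM in sham and at 249, 216 and 131 CPM in I/R. I/R 1 and I/R 2 stood well above sham, and I/R 3 lay within the sham range (0.63 ± 0.20, adjusted p = 0.24 in edgeR's test). Without I/R 3 its log2 fold change was 0.86 and its adjusted p 0.020, DESeq2 gave an adjusted p of 0.044, and over all alternatives the adjusted p ran from 0.0048 to 0.74. The granins Chga and Chgb and the processing enzymes Pcsk1, Pcsk2 and Cpe had log2 fold changes between -0.08 and 0.11, and Nucb2, a precursor of nesfatin, had 0.30 (adjusted p = 0.56).

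**Figure D5:**
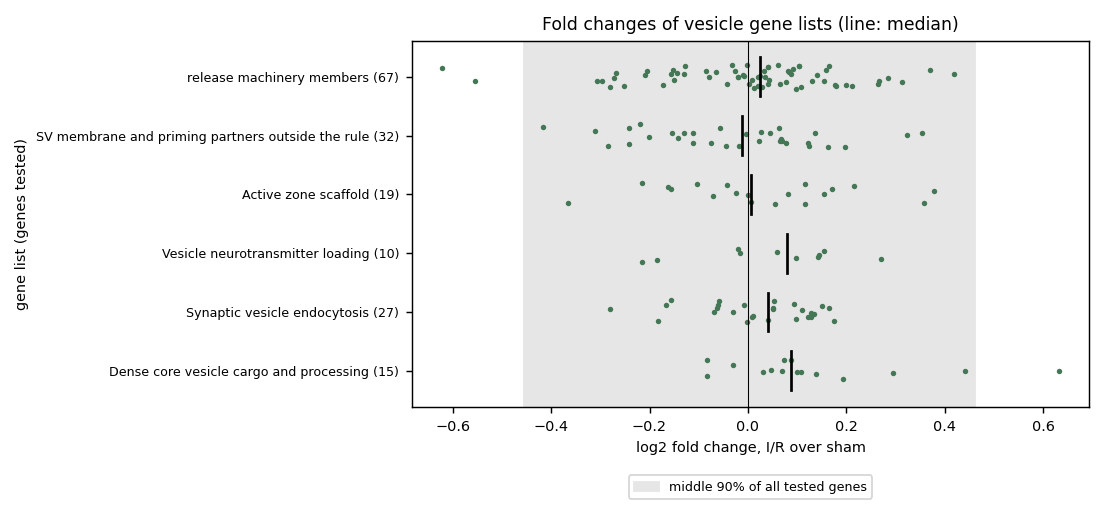
Log2 fold change (I/R over sham) of each tested gene in the release machinery and in 5 lists of other vesicle genes, with the median of each list as a black line and the middle 90% of all tested genes in grey, from -0.46 to 0.46. Medians lie between -0.01 and 0.09, and Vamp8 and Unc13d on the low side and Vgf on the high side fall outside the grey band.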

How the data were processed

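The authors deposited 1 table of expected counts per Ensembl gene and library, not scaled to library size. Per the submitters' processing notes, fastp, HISAT2, StringTie and the assembly GRCm39 were used, with no role or version given; the program and strand setting used for counting, and the annotation, remain not given in the sources used here. Libraries were made with a stranded mRNA kit, per the labels' protocols. Between 10.7% and 11.5% of values in a library were not whole, and all were rounded. No gene coordinates are given.

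Counts of all 57180 genes were filtered with edgeR's default rule (16346 kept), scaled by TMM and entered into edgeR's quasi-likelihood test (edgeR 4.0.16, R 4.3.3), with Benjamini-Hochberg adjustment over all genes tested. Genes with an adjusted p under 0.05 count as called. Fold changes set I/R over sham, in log2 unless given as a fold, SE came from the fold change and its F statistic, and 95% intervals from the total degrees of freedom of the moderated fit. CPM used TMM-scaled library sizes. The common biological coefficient of variation was 13.2%. Pairs of libraries within a group differed by more than sampling noise (chi-square per degree of freedom 4.11 to 30.5). The pipeline was tested on simulated data.

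The members and gene lists were chosen with earlier results of these data known. For this reason no gene-level p is adjusted over a list alone, and no test of a list against all genes is given. The exact permutation p-values of the family sums and of the family pairs were each adjusted over the 11 families only. They carry the same limit of choice. Values in every library are given for members with an unadjusted p under 0.05 and no overlap, for the main neuronal genes of each role and for the highest or lowest-p gene of a family; Stxbp5l was added after its values were seen. Alternatives were RLE and upper-quartile scaling, DESeq2 1.42.0, limma-voom (limma 3.58.1), robust dispersion, other filters, the replicate number as a block, leaving out each library and sham 2 alone against I/R. The level, fold change and shares of 2 members are not reported here, and both stay in the counts and sums.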

Additional observations from a re-analysis of the deposited data

How the results depend on the processing

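All 15 alternatives called 0 release machinery members, and the lowest adjusted p of a member in any of them was 0.0647, for Vamp8 without the filter on low counts. The number of members with an unadjusted p under 0.05 ran from 4 to 9 (5.97% to 13.4%) when each library was left out in turn. In these fits the share over all tested genes ran from 7.54% to 13.6%. Without the filter the number was 9 of the same 67 (13.4%), against 8.36% of all genes tested, or 10 with the members that the filter leaves out. Over all genes the number of calls, 188 as reported, was 312 in DESeq2, 494 without the filter and 32 with sham 2 alone, and ran from 87 to 181 when each library was left out. With the replicate number as a block it was 63, and 5 members (7.46%) had an unadjusted p under 0.05, against 10.1% of all tested genes. Deviations of same-numbered libraries from their group means had correlations of -0.17, 0.24 and -0.18. Libraries of unlike number were not compared in this way, so the values cannot decide whether the numbers pair the mice. The reported fit did not treat them as pairs. Among the dense core vesicle genes 1 was called in DESeq2 and 1 without the filter, and 0 to 1 when each library was left out, Vgf each time. Members whose fold change switched sign had reported log2 values of at most 0.15 in size in all but the fit of sham 2 alone, where 14 of 67 switched, with values of up to 0.29. The other counts of calls stayed within 1.5 times under the remaining settings, and the cause of the differences was not tested. Over all settings 20 of 1005 member fold changes moved by over 1 SE. With 3 mice per group, any difference inside a given interval remained possible. The intervals are unadjusted and are not a limit of detection for calls. Those of 7 members left out 0, and none of these members was called.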
